A study of Caenorhabditis elegans with 609 samples.

Results

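The strains of the wild *C. elegans* panel with the most and the least RNA of 2 sperm genes were compared here. Strains with 2 or more cultures, 194 with 3 and 13 with 2, were ranked by the strain mean of log2(TPM + 0.5) of *gsp-3* and *gsp-4*, which encode protein phosphatases of sperm, where TPM is the abundance of a transcript relative to all transcripts of the sample. The first 20 strains of the ranking are called the high strains and the last 20 the low strains, so 40 of these strains and 117 of 608 cultures are described in detail. The groups were selected on these values, and both genes were left out of everything that follows the description of the ranking. In the study, mRNA of whole young adult hermaphrodites was sequenced in bulk, with each independently grown culture as 1 sample. All strains were grown at 20 °C on agar plates with *E. coli* OP50, started from embryos of bleached adults, and harvested once the first embryo was seen. The groups were formed by strain and carry no treatment. The paper reports that age at this point varied between strains, and it estimated sample ages from expression. Age was not estimated here, so the groups may differ in it. The 20 high strains were JU3140, JU2234, EG4724, JU2575, NIC526, JU2141, QX1791, MY2573, JU397, JU2576, QG556, JU2565, JU2572, JU2592, JU1395, GXW1, JU2570, JU2526, JU1808 and JU2581, in this order. The 20 low strains were ECA743, JU360, JU778, DL238, LKC34, NIC252, ED3049, NIC259, JU775, MY518, JT11398, MY2147, JU2811, NIC277, CX11314, ECA594, ECA592, MY2585, CB4856 and NIC515, the last being the lowest.

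A *C. elegans* hermaphrodite makes its sperm late in larval life, stores them in the spermatheca, and then switches its germ line to oocytes for the rest of its adult life. Spermatocytes transcribe most sperm genes before the meiotic divisions end, and mature sperm make no new RNA, so sperm transcripts fade from the animal after the switch. The major sperm proteins (MSPs) form the moving cytoskeleton of the crawling sperm and also act as a signal that starts oocyte maturation. In RNA of whole animals, fewer cells of a type and less RNA per cell cannot be told apart.

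The strain means of the ranking score ran from 6.12 to 6.52 with a median of 6.24 in the high strains, against 0.50 to 2.65 with a median of 2.17 in the low strains, and the other 167 strains had a median of 4.62. JU3140, at the top, averaged 98.0 TPM of *gsp-3* and 85.2 TPM of *gsp-4*, and NIC515, at the bottom, averaged 1.12 TPM and 1.18 TPM of these genes. The limits of the groups cut through a continuous order. JU2581 at 6.12 was the last strain inside the high group and CB4852 at 6.09 the first outside it, while ECA743 at 2.65 was just inside the low group and QX1794 at 2.71 just outside. Cultures of the high strains lay close together, with a median SD of the score of 0.12 within a strain and a range of 0.02 (JU2234) to 0.49 (JU1808). Cultures of the low strains were spread more widely, with a median SD of 0.96 and a range of 0.16 (JU775) to 2.24 (ED3049). In the other 167 strains the median SD was 0.55 and the highest 2.62. Every culture of the 20 high strains was above the median of all 608 cultures, and every culture of the 20 low strains was below it. This was not particular to the groups. Of the other 167 strains, 51 had all cultures above this median and 42 had all below it. The strains were ranked on these same values.

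**Figure D1:**
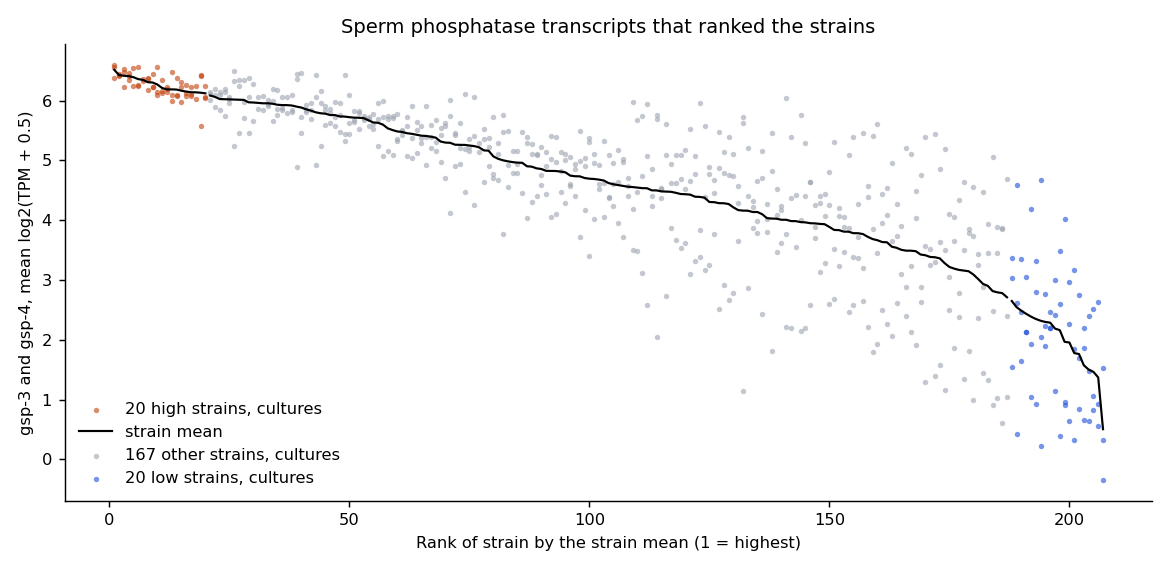
Mean log2(TPM + 0.5) of *gsp-3* and *gsp-4* in each of 608 cultures (points) against the rank of its strain, with the strain means as a line, high strains at the left and low strains at the right. The cultures of the 20 high strains stay in a narrow band around 6.24, while those of many low strains and of many other strains are scattered.

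Library depth was alike in both groups, with 16690676 to 53363708 estimated counts in the 57 cultures of the high strains and 16197195 to 82306541 in the 60 cultures of the low strains. Of these cultures, 20 of the high strains and 3 of the low strains were sequenced in the pool labelled GZpool_08_2020. The factors that put TPM of different samples on 1 scale had a median of 0.89 in the high strains and 1.13 in the low strains, so normalization raised the values of the high strains against those of the low strains. Without these factors, the median log2 difference over all genes was 0.10 in place of 0.28, and values below should be read against this shift. Culture 3 of JU2811 and culture 3 of JT11398, both low strains, stood apart with factors of 0.42 and 0.64 and with 38.4% and 12.7% of their TPM on annotated ribosomal RNA, whose median share was 3.41% in the high strains and 3.47% in the low strains.

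Because the high and low strains were chosen on the same cultures, their contrast is given as a description only. A test was made on cultures that took no part in a ranking. Strains with 3 cultures were ranked on cultures 1 and 2, and culture 3 of the first 20 and of the last 20 strains was compared with the quasi-likelihood test of edgeR, 1 culture per strain, with Benjamini-Hochberg adjustment over all genes and a threshold of 0.05. These held-out groups shared 17 strains with the 20 high strains and 16 with the 20 low strains. The rest were CB4852, JU1543 and RC301 in the high held-out group, and ED3040, JU2007, NIC511 and WN2050 in the low one. Gene values of held-out cultures below, there also called high or low strains, are of these held-out groups. Some of their range limits therefore come from strains outside the 20. Of 16258 genes tested, 6193 (38.1%) were called higher and 5528 (34.0%) lower in the high strains, with a median log2 fold change of 0.10, so that a call by itself was common and the size of a change matters more. Counts of calls in the gene lists below are to be read against these shares. At least 8-fold differences were far less balanced, with 916 genes higher and 47 lower. In the description of the 40 strains, 3273 genes (20.1%) were at least 2-fold higher and 178 (1.09%) at least 2-fold lower in the high strains. The ranges of strain means did not overlap for 2703 genes (16.6%) that were higher and 534 genes (3.28%) that were lower. With limma on log2(normalized TPM + 0.5) in place of edgeR, 7969 genes were called higher and 3582 lower, so that 69.0% of calls were higher in place of 52.8%.

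The MSP genes were higher in the high strains without exception among those measured. Of 31 MSP genes, 29 passed the filter on low counts, and all 29 were called higher in the held-out test, with log2 fold changes between 3.02 and 3.61 and a median of 3.26 beside 0.10 for all genes. A gene could pass that filter through the strains in which it is high, and the 2 MSP genes that did not pass are in none of these counts. In the 40 strains the summed normalized TPM of the MSP genes ran from 10357 to 18371 with a median of 13474 in the high strains, against 142 to 2102 with a median of 801 in the low strains, and single cultures did not overlap either, with 9727 to 19995 TPM in high strains and 49.4 to 5140 TPM in low strains. Many MSP genes are near-identical copies that share reads, so their single values are uncertain and their sum is the safer measure.

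*msp-77* (F32B6.6, IV:9894631-9895014 on WBcel235) had 356 to 803 normalized TPM with a median of 613 in the held-out cultures of high strains, against 0 to 230 with a median of 20.6 in those of low strains. The 20 cultures of each group did not overlap, and the log2 fold change was 3.61 (SE 0.37, edgeR adjusted p = 1.06e-10). *msp-63* had 12.1 to 55.4 TPM with a median of 26.9 in high strains, against 0 to 16.05 with a median of 0.77 in low strains, and here the groups overlapped, with 18 of 20 high cultures above every low culture. *msp-64* had a median of 434 TPM in high strains and 12.6 TPM in low strains, and 19 of 20 high cultures were above every low culture. *msp-74* was listed at 0 in 1 of 20 high cultures, against 15 of 20 low cultures, and its median in high strains was 2.58 TPM.

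Genes of the *spe* and *fer* series, named for mutants with defective sperm, followed the MSP genes with a few exceptions. Of 29 measured, 25 were called higher and 3 lower, beside 38.1% and 34.0% of all genes, with a median log2 fold change of 2.65. *spe-18*, which is needed to assemble MSP into fibrous bodies in spermatocytes, had 33.1 to 103 TPM with a median of 52.3 in the held-out cultures of high strains, against 0.71 to 17.1 with a median of 2.43 in those of low strains. The groups did not overlap (II:13151459-13153399, log2 fold change 3.60, SE 0.32, edgeR adjusted p = 5.03e-12). *spe-8*, a tyrosine kinase of the pathway that activates spermatids, had 3.01 to 10.8 TPM with a median of 6.42 in high strains, against 0 to 1.94 with a median of 0.29 in low strains, again without overlap. *spe-19*, which acts in spermatid activation, had 0.66 to 2.64 TPM with a median of 1.84 in high strains, against 0 to 0.93 with a median of 0.07 in low strains, and 17 of 20 high cultures were above every low culture.

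The exceptions in this list were *spe-39*, *spe-44*, *spe-48* and *spe-5*. SPE-39 acts in vesicle traffic in many tissues, and its RNA was slightly lower in high strains, with medians of 38.4 TPM in high and 42.2 TPM in low strains and a log2 fold change of −0.38. *spe-48* had medians of 21.0 and 25.4 TPM in high and low strains and a log2 fold change of −0.54. *spe-5*, a subunit of the vacuolar proton pump, was not called, with a log2 fold change of −0.09 and an edgeR adjusted p of 0.284. *spe-44* is described with the regulators below.

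Of 34 other sperm genes, 31 were called higher and 2 lower, beside 38.1% and 34.0% of all genes, with a median log2 fold change of 3.18. They include *ssp*, *msd* and *smz* genes, whose products are small MSP-like or sperm-specific proteins, and the *nspd* family of short nematode-specific peptides. *ssp-36* had 6.84 to 14.1 TPM with a median of 10.3 in the held-out cultures of high strains, against 0 to 3.29 with a median of 0.33 in low strains, without overlap. *nspd-5* had a median of 1021 TPM in high strains against 17.8 TPM in low strains, but 3 of 20 high cultures were listed at 0, as was the mean of the high strain GXW1. The *nspd* genes are close copies of each other that share reads, so their single values are uncertain. *nspd-8* was called lower, and no fold is given for it. With 40 strains per group its direction turned, and within pool GZpool_08_2020 it was not called, at a log2 fold change of 0. It was listed at 0 in all 20 held-out cultures of high strains and in 14 of 20 of low strains, and reached 312 TPM in the rest. Among the 20 low strains, only JU360 (141 TPM), NIC252 (87.8 TPM), ECA743 (44.5 TPM) and JU778 (2.60 TPM) had strain means of *nspd-8* of at least 1 TPM, and no high strain did.

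*spch-1*, a protein of sperm chromatin chosen after its values were seen, had 87.6 to 296 TPM with a median of 150 in the held-out cultures of high strains, against 1.22 to 55.7 with a median of 5.10 in low strains (log2 fold change 3.81, SE 0.36, edgeR adjusted p = 1.86e-11). The groups did not overlap.

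*peel-1*, a toxin that sperm carry into the embryo, had 0 to 9.19 TPM with a median of 5.15 in the held-out cultures of high strains, against 0 to 2.49 with a median of 0 in low strains (log2 fold change 3.75, SE 0.56, edgeR adjusted p = 1.56e-07). Of the 20 high strains only QG556 had a mean under 0.1 TPM, against 9 of the 20 low strains. The gene is known to be missing from the genomes of some wild strains, and regions that differ strongly from the reference genome were not masked here. *zipt-7.1*, a zinc transporter that acts in sperm activation, was among the 2 genes called lower, with medians of 52.0 TPM in high and 54.7 TPM in low strains and a log2 fold change of −0.27.

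Regulators of the sperm fate were not higher as a group. Of 11 measured, *fog-3* was called higher and 8 were called lower, with a median log2 fold change of −0.37 beside 0.10 for all genes. With limma 3 of the 11 were called higher and 5 lower, and the median was −0.14. *fog-3*, which commits germ cells to sperm, had 1.25 to 4.38 TPM with a median of 2.996 in the held-out cultures of high strains, against 0.38 to 4.23 with a median of 1.09 in low strains. Its groups overlapped, and the log2 fold change was 1.01 (SE 0.21, edgeR adjusted p = 5.23e-05). *fog-1*, which acts beside it, had 8.002 to 19.9 TPM with a median of 11.8 in high strains, against 8.28 to 23.2 with a median of 14.6 in low strains, and was called lower (log2 fold change −0.62, SE 0.09, edgeR adjusted p = 1.13e-07). With limma *fog-1* was not called, at a log2 difference of −0.21 and an adjusted p of 0.0765. *fog-2*, which allows hermaphrodites to make sperm, had medians of 22.4 TPM in high and 29.7 TPM in low strains, and *tra-2*, which opposes the sperm fate, had medians of 25.3 and 30.6 TPM in the same order. Both had a log2 fold change of −0.63.

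*spe-44*, a transcription factor for sperm genes, was nearly level. It had 8.80 to 15.5 TPM with a median of 12.4 in the held-out cultures of high strains, against 9.40 to 15.2 with a median of 12.3 in low strains, and its log2 fold change was −0.21 (SE 0.08, edgeR adjusted p = 0.0267). The call was lost with limma, where the difference was 0.03, with 10 or 40 strains per group, and when all genes with at least 1 count were tested. *elt-1*, which acts with it, was not called, with a log2 fold change of 0.15 and an edgeR adjusted p of 0.260.

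**Figure D2:**
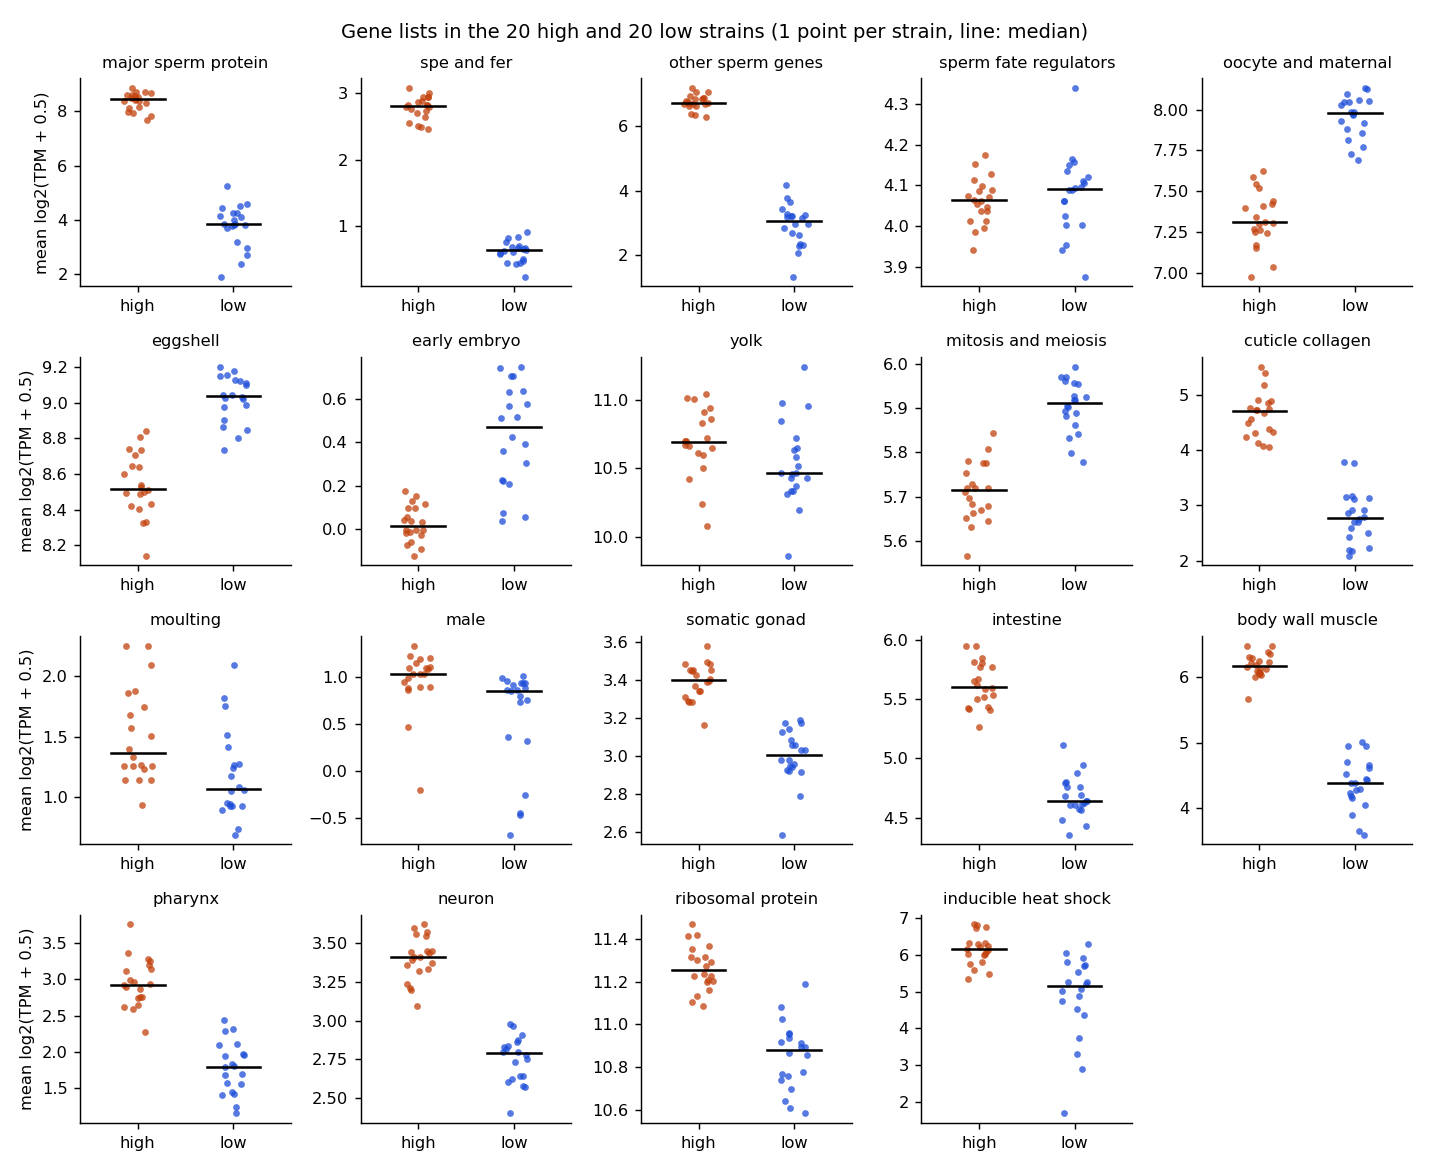
Mean log2(normalized TPM + 0.5) over the measured genes of each of 19 lists in the 20 high strains (left in each panel) and the 20 low strains (right), with the median as a line. The scales differ between panels. The 3 lists of sperm genes separate without overlap. So do the oocyte list, which is lower in high strains, and the collagen, intestine, body wall muscle and neuron lists. The mean over all genes tested, not drawn, separates too, at 3.02 to 3.31 in high and 2.51 to 2.81 in low strains. The sperm fate and yolk lists overlap widely.

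Oocyte and maternal genes were lower in the high strains. All 17 in the list were called lower, beside 34.0% of all genes, with a median log2 fold change of −0.61. *oma-1* and *oma-2*, zinc-finger proteins needed for oocyte maturation, had medians of 140 and 262 TPM in the held-out cultures of high strains, against 186 and 388 TPM in those of low strains. *rme-2*, the yolk receptor of the oocyte, had 202 to 433 TPM with a median of 318 in high strains, against 271 to 555 with a median of 434 in low strains (log2 fold change −0.62, SE 0.10, edgeR adjusted p = 1.46e-06). The largest change was in *cav-1*, a caveolin of oocyte granules (IV:9772510-9773559), with 11.4 to 32.7 TPM and a median of 16.7 in high strains, against 24.7 to 153 and a median of 50.4 in low strains. Its log2 fold change was −1.88 (SE 0.21, edgeR adjusted p = 4.17e-10), and 17 of 20 high cultures were below every low culture. *nos-2* and *spn-4*, maternal RNAs that act in the embryo, had log2 fold changes of −0.91 and −0.72. The summed TPM of the list ran from 2710 to 4288 with a median of 3389 in the 20 high strains, against 4307 to 5805 with a median of 5210 in the 20 low strains, so that these sums did not overlap.

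Eggshell genes moved with the oocyte genes, with 8 of 10 called lower and a median log2 fold change of −0.52. *egg-2*, a receptor-like protein of the oocyte surface needed at fertilization, had medians of 127 TPM in high and 193 TPM in low strains. *chs-1*, the chitin synthase of the eggshell, had medians of 87.1 and 135 TPM in the same order, and each had a log2 fold change of −0.78. *egg-3* and *cbd-1*, also of the forming eggshell, fell by less, with log2 fold changes of −0.60 and −0.57. *perm-2* and *perm-4*, of the permeability barrier, were not called, with log2 fold changes of −0.17 and −0.15.

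Genes that the embryo itself first transcribes were low in all cultures and lower still in the high strains. Of 14 in the list, 10 were measured, of which 8 were called lower and 1, *hlh-1*, higher. *pes-10*, an early zygotic transcript, had 0 to 0.97 TPM with a median of 0.19 in high strains, against 0.37 to 3.21 with a median of 1.30 in low strains (log2 fold change −2.56, SE 0.35, edgeR adjusted p = 2.71e-08). *end-1*, *tbx-38* and *ceh-51*, which specify gut and mesoderm founder cells, had medians of 0.07, 0.08 and 0.16 TPM in high strains and 0.45, 0.62 and 0.99 TPM in low strains. Their log2 fold changes lay between −2.76 and −2.74. *hlh-1*, also a muscle gene, had a log2 fold change of 0.50.

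Yolk protein genes did not separate the groups. None of 6 was called, where edgeR gave adjusted p-values of 0.387 for *vit-2* and 0.404 for *vit-6*. *vit-2* had 2442 to 4322 TPM with a median of 3388 in the held-out cultures of high strains, against 1728 to 4776 with a median of 2894 in low strains, and its log2 fold change of −0.10 (SE 0.10) changed sign with limma, at 0.16. With edgeR 0 of 6 had an unadjusted p under 0.05. Other settings called 1 gene lower (test of culture 1) or 1 to 3 genes higher (40 strains per group, within 1 sequencing pool, and limma). Of the 20 strains with the most yolk RNA, 4 were high strains and 3 were low strains.

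Genes of germline mitosis and meiosis were slightly lower in the high strains, with 19 of 23 called lower, none higher and a median log2 fold change of −0.40. Of all genes, 34.0% were called lower. *lst-1*, which keeps germline stem cells from differentiating, had 42.3 to 76.6 TPM with a median of 58.5 in high strains, against 61.8 to 101 with a median of 83.3 in low strains. *dsb-2* and *spo-11*, which act in making the double-strand breaks of meiosis, had log2 fold changes of −0.84 and −0.61, and *zhp-3*, which acts at crossovers, one of −0.53. With limma 13 genes were called lower and 4 higher.

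**Figure D3:**
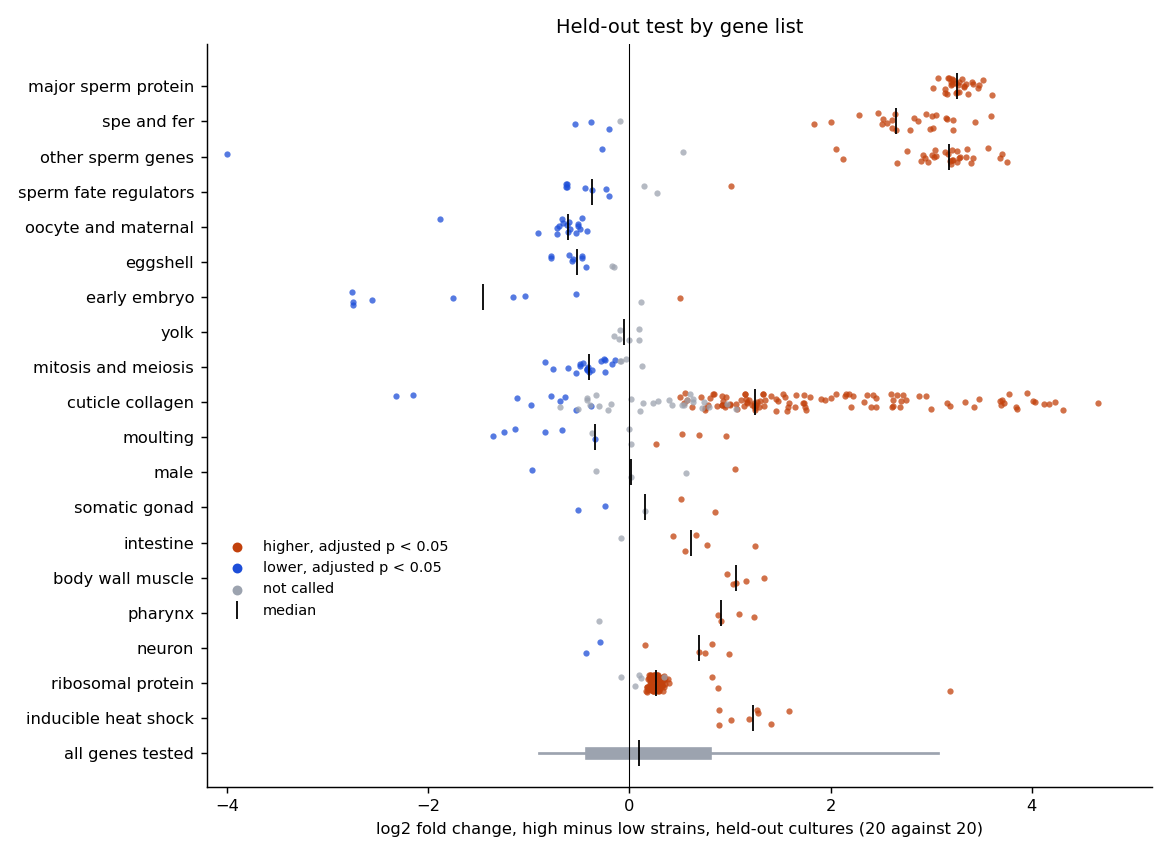
Log2 fold change of each measured gene in 19 lists between the held-out cultures of 20 high and 20 low strains, with the median of each list as a bar. For all genes the thick bar spans the quartiles and the thin line the 5th to 95th percentiles. *nspd-8* lies beyond the axis and is drawn at −4. The sperm lists have medians of 2.65 to 3.26, and the oocyte list one of −0.61.

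Among all genes with a mean of at least 5 TPM, the 10 largest increases included 2 collagens and several genes known here only by sequence name. They were *W01B6.4*, *col-146*, *W08D2.9*, *R07C3.13*, *nspb-4*, *Y54E2A.9*, *Y23H5B.2*, *Y1A5A.1*, *col-126* and *msrp-4*, with log2 fold changes between 4.19 and 4.72. *W01B6.4* had 2.41 to 29.0 TPM with a median of 13.6 in the held-out cultures of high strains, against 0 to 2.74 with a median of 0 in low strains. *msrp-4* had 20.0 to 122 TPM with a median of 70.4 in high strains, against 0 to 23.1 with a median of 1.68 in low strains. Some of these genes were listed at 0 in single strains of the high group, *W08D2.9* in JU2234 and JU2526 and *R07C3.13* in JU2581 and QX1791. *Y23H5B.2* overlapped widely, with 9 of 20 high cultures above every low culture.

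The 10 largest decreases, besides *nspd-8*, whose direction turned with 40 strains per group, were in *clec-266*, *C27A7.8*, *cht-1*, *F56G4.3*, *skr-8*, *kreg-1*, *dpy-17*, *F31C3.10* and *F53B2.8*, with log2 fold changes between −3.37 and −2.17. *clec-266*, a C-type lectin gene, had 0 to 6.14 TPM with a median of 1.36 in the held-out cultures of high strains, against 3.06 to 54.1 with a median of 9.73 in low strains, and 18 of 20 high cultures were below every low culture. *cht-1*, a chitinase gene, had 1.10 to 6.52 TPM with a median of 1.88 in high strains, against 2.72 to 55.9 with a median of 9.73 in low strains. *F56G4.3* had a median of 1.54 TPM in high and 8.30 TPM in low strains. *kreg-1*, *F31C3.10* and *F53B2.8* lost their calls or direction within 1 sequencing pool, with log2 fold changes of −0.99, 0.08 and −0.25 there, and 4 of 20 low cultures were above every high culture for *F31C3.10*, a pseudogene.

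**Figure D4:**
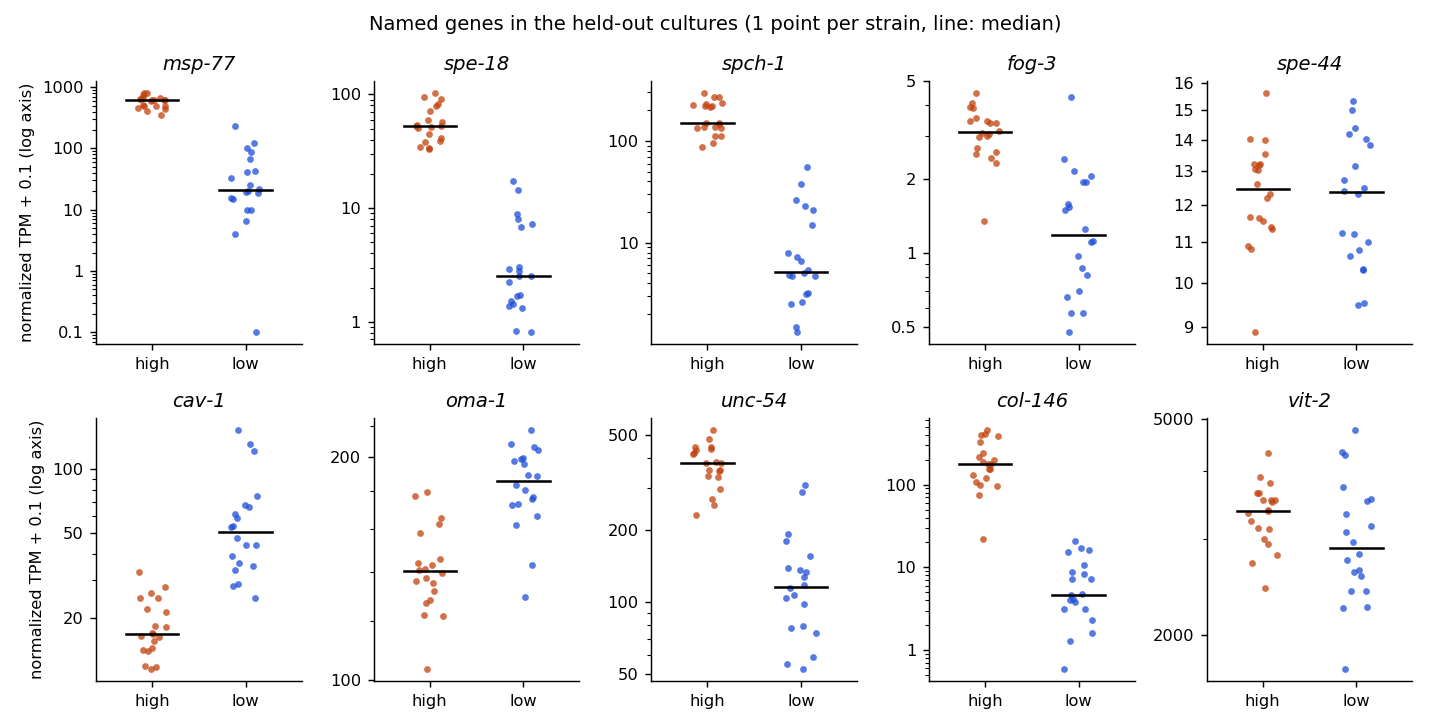
Normalized TPM + 0.1 on log axes for 10 genes in the held-out cultures of high strains (left in each panel) and low strains (right), 1 point per strain with the median as a line. *msp-77* and *spe-18* separate without overlap, *spe-44* and *vit-2* overlap throughout, and *cav-1* and *oma-1* are lower in high strains.

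Most cuticle collagens, secreted by the epidermis, were higher in the high strains. Of 174 in the annotation 145 were measured, of which 109 were called higher and 9 lower, with a median log2 fold change of 1.25 beside 0.10 for all genes. *col-146* (V:9629943-9631012) had 21.7 to 461 TPM with a median of 178 in the held-out cultures of high strains, against 0.49 to 20.6 with a median of 4.58 in low strains, without overlap (log2 fold change 4.66, SE 0.36, edgeR adjusted p = 2.76e-13). *col-126*, *col-127* and *col-137* had medians of 10.6, 8.84 and 10.2 TPM in high strains and 0, 0.38 and 0.71 TPM in low strains. *col-19*, the collagen that marks the adult cuticle, had 1467 to 3452 TPM with a median of 2263 in high strains, against 605 to 1556 with a median of 1051 in low strains (log2 fold change 0.95, SE 0.11, edgeR adjusted p = 6.72e-10). *dpy-17*, also a cuticle collagen, was called lower, with medians of 2.53 TPM in high and 6.71 TPM in low strains. Of 13 moulting genes 4 were called higher and 6 lower, beside 38.1% and 34.0% of all genes. With the sequencing pool as a covariate, within pool GZpool_08_2020 and in the test of culture 2, 0 of the 13 were called lower, and the median log2 fold change was 0.16, 0.69 and 0.26, against −0.34 here. *bli-5* had a log2 fold change of 0.96, and *fbn-1*, *mlt-11* and *noah-1* had −1.35, −1.24 and −1.13. The last 3 were not called with the sequencing pool as a covariate, at adjusted p-values of 0.483, 0.763 and 0.464 by edgeR.

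Markers of several somatic tissues were also higher in the high strains. All 5 genes of body wall muscle were called higher with a median log2 fold change of 1.06, 5 of 6 intestinal genes with a median of 0.61, 4 of 5 pharyngeal genes with a median of 0.91, and 5 of 7 neuronal genes with a median of 0.70. Of all genes tested, 38.1% were called higher, and the median was 0.10. *unc-54*, the major myosin of body wall muscle, had 232 to 526 TPM with a median of 383 in the held-out cultures of high strains, against 52.2 to 308 with a median of 116 in low strains (log2 fold change 1.34, SE 0.15, edgeR adjusted p = 7.27e-10). *ifb-2*, an intermediate filament of the gut, had 105 to 276 TPM with a median of 165 in high strains, against 37.01 to 95.5 with a median of 61.2 in low strains, without overlap. *myo-2*, a pharyngeal myosin, had a log2 fold change of 1.09, and *rab-3*, of synaptic vesicles, one of 0.82.

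The tissue lists were not uniform. Among the neuronal genes, *snb-1* and *unc-119* were called lower, with log2 fold changes of −0.30 and −0.43. In the somatic gonad 2 of 5 genes were called higher and 2 lower, near the shares of 38.1% and 34.0% over all genes. The sheath genes *ceh-18* and *ipp-5* were called higher, with log2 fold changes of 0.85 and 0.52. The gap junction genes *inx-8* and *inx-9*, which couple the sheath to the germ line, were called lower, with −0.51 and −0.25. In the test of culture 1 the pharyngeal genes *myo-1*, *myo-2* and *ceh-22* and the muscle gene *myo-3* were not called, with log2 fold changes of 0.30, 0.49, 0.46 and 0.56. These somatic levels moved with the sperm transcripts across the groups, and their part in the other results was not tested.

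All markers of males but *plg-1* had medians under 1 TPM in both groups. Of 12 genes, *cwp-1*, *cwp-2*, *cwp-3*, *cwp-5*, *lov-1*, *dmd-3* and *pkd-2* did not pass the filter, and *pkd-2*, a channel of male sensory neurons, had at most 0.06 TPM in the held-out cultures of high strains and at most 0.11 TPM in those of low strains. Of the 5 that passed, *mab-3* was called higher (log2 fold change 1.05) and *her-1* lower (−0.96), with medians under 1 TPM in both groups. The summed TPM of all 12 ran from 2.68 to 85.9 with a median of 55.2 in the 20 high strains, against 0.77 to 105 with a median of 53.0 in the 20 low strains, and most of it came from *plg-1*, the mucin of the copulatory plug.

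Ribosomal protein and heat shock genes depended on which culture was tested. Of 81 cytosolic ribosomal protein genes 76 were called higher in culture 3, with a median log2 fold change of 0.26, but 4 in the test of culture 2, 3 in that of culture 1 and 21 with the sequencing pool as a covariate. In the description of the 40 strains their median log2 difference was 0.36, and 0.07 with raw TPM. *rpl-11.2* had 719 to 1558 TPM with a median of 1028 in high strains, against 293 to 732 with a median of 502 in low strains. *rpl-42* was far from the rest at a log2 fold change of 3.19, with medians of 5.01 TPM in high and 0.25 TPM in low strains. All 8 measured genes for inducible heat shock proteins were called higher in culture 3, with a median log2 fold change of 1.23, and none of 8 in culture 2, where the median was 0.59. *hsp-16.2* had 20.6 to 105 TPM with a median of 35.4 in high strains, against 0.15 to 53.5 with a median of 12.8 in low strains. Several of these genes, the *hsp-16* genes among them, are close copies that share reads.

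Sequencing pool was unequal between the groups, as 16 of 20 held-out cultures of high strains and 3 of 20 of low strains were in pool GZpool_08_2020. Within this pool alone 5438 genes were called higher and 4192 lower, and with the pool as a covariate 5596 and 4968. Counts of lists in this pool were 28 of 29 MSP genes, 25 of 29 *spe* and *fer* genes, 30 of 34 other sperm genes called higher, and 17 of 17 oocyte genes called lower. In all, 7 pools held at least 3 cultures of the 20 high and 3 of the 20 low strains. These cultures took part in the ranking, so the values by pool that follow are a description and no test. In each of these 7 pools the medians of the sperm lists, of collagens, of body wall muscle, of intestine, of pharynx and of neurons were above the median of all genes, and those of the oocyte, eggshell, embryo and meiosis lists below 0. The median log2 difference of the MSP genes ran from 3.62 to 5.96 over the pools, and that of the oocyte genes from −0.75 to −0.39. In the held-out test, 2 low libraries, culture 3 of JU2811 and of ED3040, had factors under 0.7, and annotated ribosomal RNA took 0.98% to 8.26% of TPM in the high and 2.49% to 38.4% in the low cultures. Without those 2 libraries 6417 genes were called higher and 5580 lower, and the MSP, *spe* and *fer* and oocyte counts were the same.

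Genes with the largest increases were rare on the X chromosome. Of 2263 genes tested on X, 47.2% were called higher and 21.8% lower, but only 7 (0.309%) were called and at least 8-fold higher, against 4.41% on V, 4.54% on III, 6.49% on I, 6.95% on II and 10.2% on IV. Chromosome IV held 286 of the 916 genes with at least 8-fold increases. Chromosomes I and III had more lower than higher calls, with 44.3% and 45.2% lower. Genes on 1 chromosome are not independent, and clusters of sperm gene copies lie on II and IV, so these shares are given without a test.

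**Figure D5:**
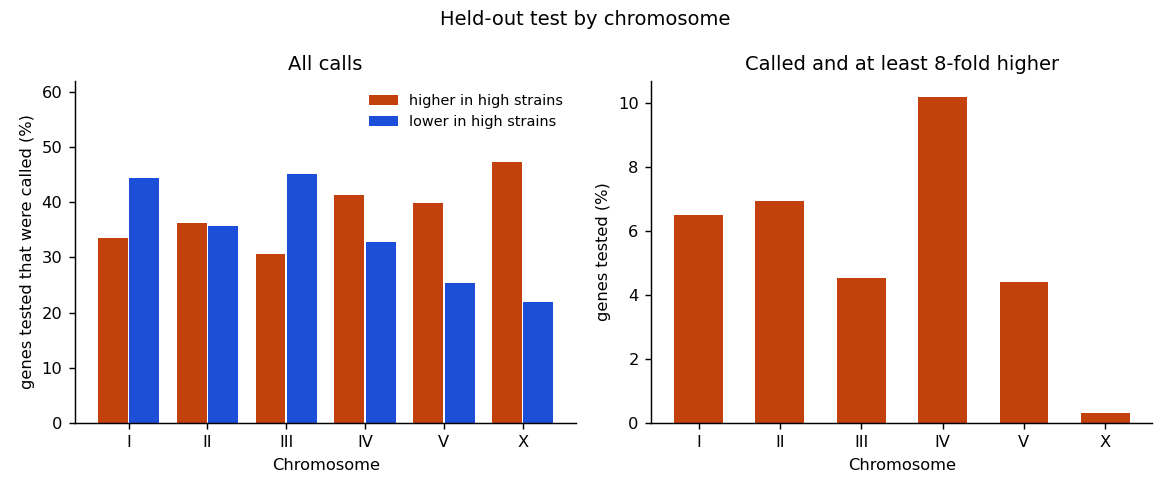
Percent of genes tested on each nuclear chromosome that were called higher or lower in the held-out cultures of high strains (left) and that were called and at least 8-fold higher (right). Of these 6 nuclear chromosomes, X has the largest share of higher calls, 47.2%, and the smallest share with at least 8-fold increases, 0.309%.

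The other 167 strains are the middle of the ranking, so for genes that follow the ranking score a median between the groups came with the selection. Over strain means the MSP list correlated with that score at r = 0.97. Medians lay between those of the groups for the MSP, oocyte and collagen genes. For the yolk, neuron, male and early embryo lists the median sum of the other strains lay outside both, as for yolk at 10545 TPM against 12024 in high and 10609 in low strains. The MSP genes summed to a median of 13474 TPM in the high strains, 4688 TPM in the other strains and 801 TPM in the low strains. The oocyte genes summed to medians of 3389 TPM in the high, 4267 TPM in the other and 5210 TPM in the low strains. Collagens summed to 64827, 38303 and 25859 TPM in the same order.

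Single cultures of 1 strain could vary widely, in the low strains and also in strains outside both groups. In ED3049 the summed MSP genes ran from 76.2 to 2915 TPM over 3 cultures, in JU360 from 169 to 5140 TPM and in NIC515, the lowest strain, from 49.4 to 288 TPM. In the high strain JU2234 they ran from 13564 to 18230 TPM. The largest fold between cultures of 1 strain was 1.46 in the high and 38.3 in the low strains.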

How the data were processed

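Poly(A) RNA of 608 cultures from 207 strains was used. Per the labels and the study's methods, the authors trimmed reads with fastp 0.20.0 and pseudoaligned them with kallisto 0.44.0 to transcriptomes carrying each strain's single-nucleotide variants. The deposited values are estimated counts and TPM per transcript, not normalized between samples. Totals per sample were 15461168 to 280262722 estimated counts (median 28772489). The masks of hyper-divergent regions used in the study were not applied, so a value of 0 can be reads that did not align.

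Transcripts with at least 5 normalized counts in all samples of at least 10 strains were kept (26388 transcripts of 16260 genes) and summed per gene. The ranking used TPM as deposited. Other TPM values were divided by median-ratio factors, with a pseudocount of 0.5 for log2 values. Counts were rounded to whole numbers and scaled by TMM in edgeR 4.0.16 (R 4.3.3). The test was also run on simulated counts in which few genes changed, equally in both directions. That run does not speak for data with calls as many and large changes as unbalanced as here. Tests were 2-sided. Alternatives used limma 3.58.1 and DESeq2 1.42.0, other cultures, group sizes, filters and scalings, and sequencing pool. Named genes were up to 4 per list with the largest called changes (the 2 most abundant where fewer than 2 were called), the 10 highest and 10 lowest of all called genes with a mean of at least 5 TPM, and 10 genes of prior interest. Strains, gene lists and named genes were chosen with earlier results of these data known. A named gene is not reported here. Gene names and coordinates are from the WBcel235 annotation. p-values measure the spread between cultures of different strains, 1 each, in which strain and culture differences cannot be told apart. The test treated strains as independent, and their relatedness was not modelled.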

Additional observations from a re-analysis of the deposited data

How the results depend on the processing

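In the held-out test the number of genes called higher was between 4638 and 7969 and the number called lower between 3582 and 5721 over the alternatives, and the count of lower calls moved by over 1.5 times only with limma (3582). In the description of the 40 strains, the count of genes at least 2-fold lower was 411 with a pseudocount of 0.1, 105 with a pseudocount of 1 and 359 with raw TPM. Leaving out 1 replicate number gave 3319 to 3644 genes at least 2-fold higher and 202 to 220 lower. Of the single values for named genes, 1053 kept direction and side of the threshold, 54 lost the call, 6 gained one and 15 changed sign. *vit-6* was −0.06 in culture 2, −0.31 in culture 1 and −0.25 in culture 1 with pool as a covariate, and *her-1* was 0.11 in culture 2. *vit-2* was 0.05 with 40 strains per group, 0.09 with pool as a covariate, 0.18 within pool GZpool_08_2020 and 0.16 with limma. Within that pool *fbn-1* was 0.18, *mlt-11* 0.69, *noah-1* 0.24, *F31C3.10* 0.08 and *nspd-8* 0, and *nspd-8* was 1.03 with 40 strains per group. *spe-44* was 0.03 with limma. The yolk list had a median of −0.11 with raw TPM. The cause was not tested. No paired analysis was possible because each strain gave 1 culture to the test and the strains of the groups share no culture.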

Other observations

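Families outside the lists were counted after their values were seen. Of all genes tested, 34.0% were called lower and 38.1% higher in the high strains. Of 76 F-box genes of the *fbxb* family, 70 were called lower in the high strains and none higher, with a median log2 fold change of −2.13. Over the alternatives 51 to 72 were called lower, and with limma, which understates changes of genes with low TPM, the median was −0.48. Their summed TPM was 9.83 to 27.2 with a median of 13.4 in the held-out cultures of high strains, against 17.9 to 82.4 with a median of 37.6 in those of low strains. These sums are over all 76 genes, so most single genes were near the floor. In the 40 strains the median log2 difference of these genes was −0.53. Of 8 *ttbk* genes, which encode tau-tubulin kinase relatives, all were called higher with a median of 3.11, as were all 11 *nspb*, 7 *msrp* and 4 *ssq* genes, with medians of 3.36, 3.36 and 3.78. Of the 916 genes called and at least 8-fold higher, 679 carry no family symbol.

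Of the transposable element sequences in the tables, 50 had a mean of at least 1 TPM. Of these, 5 were at least 2-fold higher in the high strains and 0 at least 2-fold lower, beside 20.1% and 1.09% of all genes. Their median log2 difference was 0.26, beside 0.28 for all genes, and the strain means overlapped for all 50. The internal part of the retrotransposon CER17 had 0.02 to 21.0 TPM with a median of 13.5 in high strains, against 0.02 to 7.48 with a median of 0.08 in low strains. These values are descriptions without a test.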
